A study of Mus musculus with 6 samples.

Results

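The MARK kinases, the LKB1 complex that activates them and the PAR scaffolds that act beside them were examined in microglia, the immune cells that reside in the brain, taken at P15 from the rostral nucleus of the solitary tract (NST), the brainstem relay for taste. The set holds 9 genes: Mark1, Mark2, Mark3, Mark4, Stk11, Strada, Cab39, Pard3 and Pard6a. It was chosen by the level of Mark2, whose 3 E3–E12 diet libraries all lay below its 3 controls, and the paralogs and partners of that kinase complete it. Of the 9 genes, 8 were found among the 26789 genes of the deposited table, and Pard6a, a PDZ scaffold of the PAR complex, was not analysed here.

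Offspring of C57Bl/6 dams on standard chow throughout (controls) were compared with offspring of dams given a sodium-restricted diet and distilled water from E3 to E12 and standard chow afterwards (E3–E12 diet mice). There were 3 libraries per group, and each was described as the pooled rostral NST of 6 littermates of either sex, so that a library stood for a litter and not for a mouse. By the methods of the study the cells were selected with CD11b magnetic beads and their RNA was amplified, whereas the series record names laser microdissection and other kits, so the route by which the cells were obtained is uncertain. Below, the values of a group are listed in the order of its replicates, and SE stands for the standard error of a log2 fold change. The question was whether microglia differed in gene expression before the age at which taste afferents are pruned.

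Normalized counts summed to between 9407141 and 17204618 per library, and between 3459 and 10640 genes were listed at 0. Control replicate 2 had both the highest total and the most genes at 0, and it stood at an extreme for several of the genes below. All 10 microglia markers examined (among them Cx3cr1, P2ry12, Tmem119 and Csf1r) were above 0 in all 6 libraries, with a summed level of 101719 to 513551 normalized counts in controls and 101654 to 315324 in E3–E12 diet mice. Transcripts of other cells were present too, and the summed level of each of the 10 marker lists examined overlapped between the diets. Oligodendrocyte lineage markers (8 genes, Mag listed at 0 in some library) summed to 5245 to 43910 normalized counts in controls and 6232 to 24359 in E3–E12 diet mice, endothelial markers (8 genes, Ly6c1 at 0 in some library) to 5223 to 10891 and 6916 to 10523, and choroid plexus markers (5 genes, 3 of them at 0 in some library) to 553 to 18735 and 52.4 to 39852. Control replicate 2 was lowest of the 6 libraries in astrocyte, mural cell, endothelial and neuron markers, with Gfap and Aldh1l1 listed at 0. The median log2 fold change between diets was 1.56 for endothelial, 1.05 for mural cell, 0.93 for astrocyte and 0.66 for neuron markers, higher in E3–E12 diet mice. These are the lists in which control replicate 2 was lowest. The other lists had medians below 0. They were -1.11 for erythroid, -0.98 for choroid plexus, -0.52 for neutrophil, -0.44 for border macrophage, -0.26 for microglia and -0.25 for oligodendrocyte lineage markers. In limma, 0 marker genes passed the adjusted threshold. The part of these cells in the results below was not tested.

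MARK kinases, also called PAR-1, are serine/threonine kinases that phosphorylate microtubule-associated proteins such as tau and release them from microtubules, and they mark one side of a polarized cell while PAR-3, PAR-6 and atypical protein kinase C mark the other. They become active when LKB1, encoded by Stk11, phosphorylates their activation loop. LKB1 itself works in a complex with the pseudokinase STRADα (Strada) and the scaffold MO25α (Cab39). In the brain this pathway is best known for its part in axon formation and in the phosphorylation of tau.

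The 4 MARK genes are close copies in their kinase domain, which bears on whether reads of one could be counted for another. The 60 coding bases over which Mark2 was most alike to its 3 paralogs, taken within a single exon of Mark2, are shown to let the copies be compared (GENCODE M21 transcripts, GRCm38, the build named for these data). For Mark2, capitals mark the 16 positions at which at least 1 paralog differs, and for the others they mark the bases that differ from Mark2.
Mark1: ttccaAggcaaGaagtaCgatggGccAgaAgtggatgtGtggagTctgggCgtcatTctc
Mark2: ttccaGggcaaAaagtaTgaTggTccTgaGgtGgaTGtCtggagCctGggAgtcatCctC
Mark3: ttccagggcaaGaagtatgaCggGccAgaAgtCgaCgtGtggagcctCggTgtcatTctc
Mark4: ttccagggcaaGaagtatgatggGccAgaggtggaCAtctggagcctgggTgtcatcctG
These stretches lie in exon 9 of 19 of Mark2 (chr19:7285780-7285839, minus strand), exon 8 of 18 of Mark1 (chr1:184919566-184919625, minus strand), exon 8 of 18 of Mark3 (chr12:111627205-111627264, plus strand) and exon 8 of 17 of Mark4 (chr7:19443165-19443224, minus strand). Mark1, Mark3 and Mark4 shared 50, 49 and 53 of the 60 bases with Mark2. The longest run of identical coding bases was 41 between Mark2 and Mark1, 41 between Mark2 and Mark3 and 20 between Mark2 and Mark4, and 0% of the 50-base windows of the annotated Mark2 transcripts occurred in any other annotated gene. Shared windows made up 0.367% of Mark1 (with Mark3) and 0.792% of Mark3, and none of Mark4, Cab39 or Pard3.

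Mark2 (chr19:7275396-7341860) had 11440.1, 12209.9 and 4106 normalized counts in the controls, against 713, 901 and 2330 in E3–E12 diet mice. The lowest control was 1.76 times the highest E3–E12 diet library, and within each group the libraries also spread widely, with the highest 2.97 times the lowest in controls and 3.27 times in E3–E12 diet mice. The means were 9252 ± 4473 in controls and 1315 ± 885 in E3–E12 diet mice (SD, n = 3 in each group, as for all means below), a 7.04-fold ratio. On the log2(normalized count + 1) scale, used for all differences below, the fold change of Mark2 was -2.86 (SE 0.76). Because these are the values that selected the genes, they are given as a description with no test. Its size ran from -3.37 to -2.52 with each library left out in turn, and its sign there was fixed by the choice of the set. In bulk RNA, fewer cells of a type and less RNA per cell cannot be told apart, which holds for every gene below.

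Relative to its exon length, Mark2 in controls was among the most abundant transcripts of the cells. It ranked above 99.2%, 97.5% and 95.6% of the 18007 genes tested in control replicates 1, 2 and 3, and above 72.1%, 76.1% and 90.0% in E3–E12 diet replicates 1, 2 and 3. Its level per kilobase of exon was 1165 ± 563 normalized counts in controls and 166 ± 111 in E3–E12 diet mice.

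**Figure D1:**
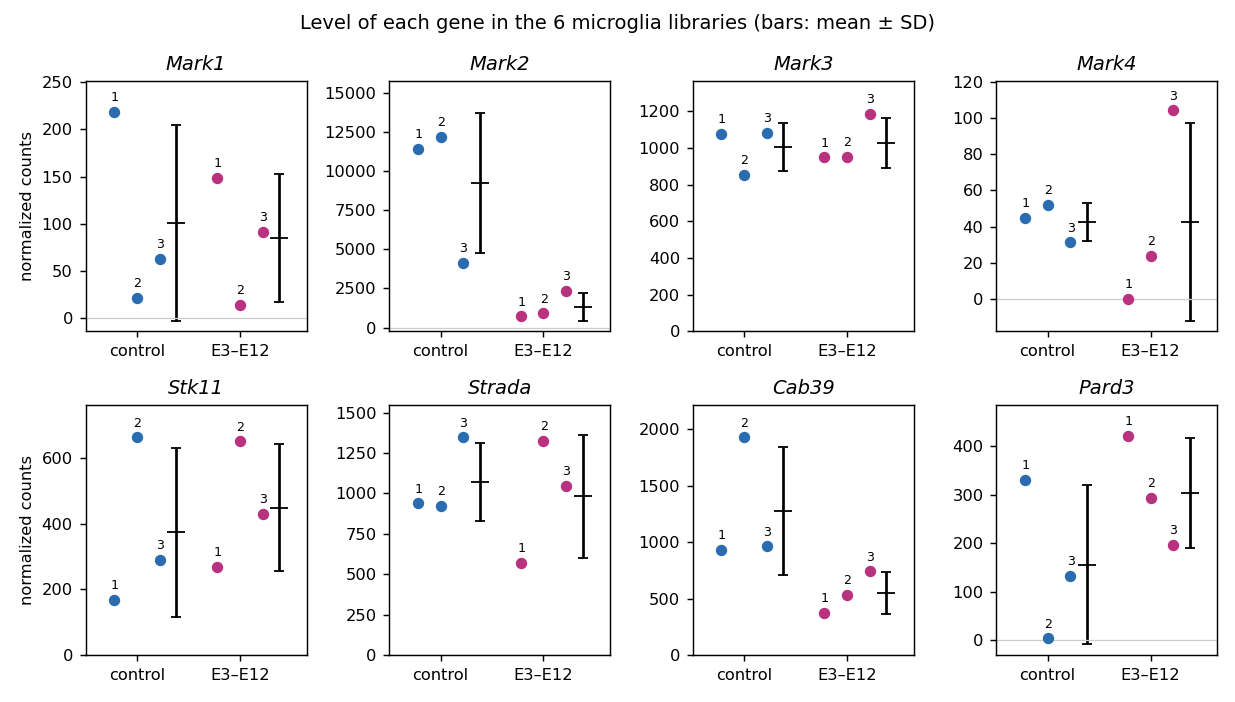
Normalized counts (y axis, linear, own scale per gene) of the 8 measured genes in the 3 control libraries (blue) and the 3 E3–E12 diet libraries (magenta), numbered by replicate, with black bars for the mean ± SD. Mark2 and Cab39 separate the groups completely, while Mark3 stays between 852 and 1187 normalized counts in all 6 libraries.

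The paralog Mark3 was the steadiest of the MARK genes. Mark3 (chr12:111574523-111656221) had 1078, 852 and 1084 normalized counts in the controls, against 948, 949 and 1187 in E3–E12 diet mice. It varied less over the 6 libraries than any other gene of the set, with its highest library 1.39 times its lowest, and the groups overlapped. Its log2 fold change was 0.034 (SE 0.53, 95% confidence interval from -1.23 to 1.30, adjusted p = 0.999 in limma), so a change of about 2-fold in either direction is within the interval.

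Mark1 (chr1:184896789-184999570) was low and varied widely between libraries, with 218, 21.9 and 62.9 normalized counts in the controls, against 149, 14.6 and 91.8 in E3–E12 diet mice. Replicate 1 was highest and replicate 2 lowest in both groups. The log2 fold change of Mark1 was -0.19 (SE 1.18, adjusted p = 0.999 in limma), and its direction turned without control replicate 1 (0.65) or without E3–E12 diet replicate 2 (0.78). Mark4 (chr7:19424775-19458821) had 44.9, 51.7 and 31.2 normalized counts in the controls, against 0, 23.6 and 104 in E3–E12 diet mice. Its log2 fold change of -1.64 (SE 1.63, adjusted p = 0.999 in limma) rested on the library listed at 0, and without that library, E3–E12 diet replicate 1, it was 0.25. The group means of Mark4 were nearly equal, at 42.6 ± 10.5 in controls and 42.6 ± 54.6 in E3–E12 diet mice. With 0.5 or 10 added to the counts in place of 1, its log2 fold change was -1.97 or -0.62.

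Per kilobase of exon, the order of the MARK genes in controls was Mark2, Mark3 at 104 ± 13.6, Mark1 at 23.2 ± 23.8 and Mark4 at 9.13 ± 2.24 normalized counts, where the libraries of Mark1 and Mark4 overlapped. In E3–E12 diet mice Mark2 at 166 ± 111 and Mark3 at 106 ± 14.2 did not differ beyond their spread, and neither did Mark1 at 19.5 ± 15.4 and Mark4, which ran from 0 to 22.3. Of the summed MARK level per kilobase, Mark2 made up 89.4%, 93.7% and 79.6% in the controls, against 40.5%, 51.6% and 63.9% in E3–E12 diet mice. Mark3 made up 5.35% to 17.2% in controls and 26.7% to 44.5% in E3–E12 diet mice. The shift in these shares follows from the values of Mark2 that selected the set and was not tested.

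**Figure D2:**
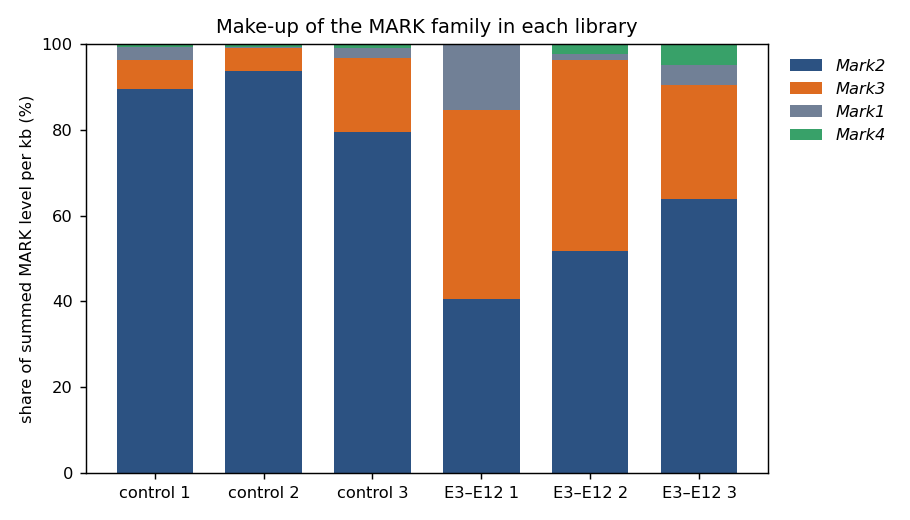
Share of the summed normalized counts per kilobase of exon (y axis, %) held by Mark2, Mark3, Mark1 and Mark4 in each of the 6 libraries. Mark2 holds 79.6% or more in each control and 63.9% or less in each E3–E12 diet library, and Mark3 holds most of the remainder in all libraries.

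Of LKB1 and its partners, the diet groups were apart for Cab39 and overlapped for Stk11 and Strada. Cab39 (chr1:85793441-85851576) encodes the MO25α scaffold that stabilizes the LKB1 complex. It had 929, 1929 and 962 normalized counts in the controls, against 372, 529 and 741 in E3–E12 diet mice. The groups did not overlap, with control replicate 1 at the bottom of the one and E3–E12 diet replicate 3 at the top of the other. The log2 fold change of Cab39 was -1.19 (SE 0.62), which did not pass the threshold (adjusted p = 0.999 over all genes in limma, and p = 0.1 in a two-sided exact permutation test, the smallest p that 3 libraries against 3 allow). Its size ran from -1.43 to -0.84 with each library left out in turn, where groups that do not overlap fix the sign. Cab39 was the gene of the set whose log2 level ran closest to that of Mark2 over the 6 libraries (Pearson's r = 0.904, against -0.602 to 0.624 for the other 6 genes). The groups of both genes lie apart in the same direction, for Mark2 by the choice of the set. The correlation is therefore a description from which nothing is read.

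Stk11 (chr10:80115803-80130682) encodes LKB1 itself, and it had 168, 664 and 289 normalized counts in the controls, against 267, 651 and 429 in E3–E12 diet mice. The groups overlapped almost fully, with replicate 2 highest in both. Its log2 fold change was 0.40 (SE 0.74, adjusted p = 0.999 in limma) and turned to -0.057 without control replicate 1. Exons of Stk11 overlap those of Cbarp on the opposite strand, 3.84% of its 50-base windows are shared with other genes, and the counting setting for strand is not given in the sources used here, so its level is less certain. Strada (chr11:106163330-106202168) had 938, 922 and 1348 normalized counts in the controls, against 572, 1328 and 1048 in E3–E12 diet mice. Its log2 fold change of -0.18 (SE 0.60, 95% confidence interval -1.62 to 1.25, adjusted p = 0.999 in limma) was within the spread between libraries, and it was 0.16 without E3–E12 diet replicate 1. Exons of Strada overlap Ccdc47 on the same strand, and 4.08% of its windows are shared.

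Per kilobase of exon, Strada was at 192 ± 43.3 and Cab39 at 180 ± 80.3 normalized counts in controls, with Stk11 below them at 81.5 ± 56.5. In E3–E12 diet mice the values were 176 ± 68.6 for Strada, 77.4 ± 26.1 for Cab39 and 98.1 ± 42.1 for Stk11. The ranges of Cab39 and Stk11 overlapped in each group. Within each control library Cab39 was above Stk11 (131 against 36.6, 273 against 145 and 136 against 63.2). In E3–E12 diet mice their order differed between libraries and was not resolved.

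Pard3 (chr8:127063893-127612286) encodes the PAR-3 scaffold of the opposite polarity complex and was the only measured PAR scaffold of the set. It had 331, 3.0 and 133 normalized counts in the controls, against 422, 294 and 196 in E3–E12 diet mice. Control replicate 2 was far below the other 5 libraries, and the groups overlapped. The log2 fold change of Pard3 was 2.37 (SE 1.61, adjusted p = 0.999 in limma), and it was 0.46 without control replicate 2.

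**Figure D3:**
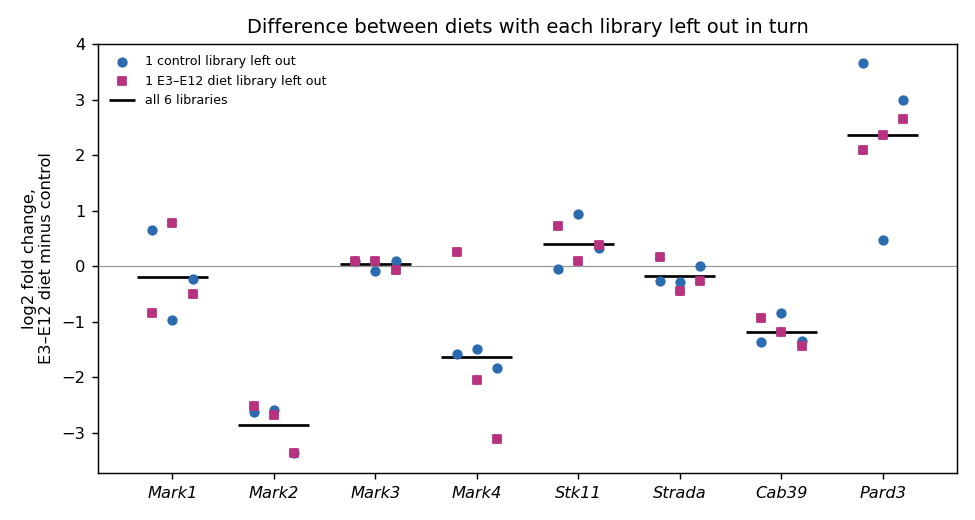
Log2 fold change, E3–E12 diet minus control (y axis), of the 8 measured genes with all 6 libraries (black line) and with 1 control library (blue circles) or 1 E3–E12 diet library (magenta squares) left out. Mark2 ranges from -3.37 to -2.52 and Cab39 from -1.43 to -0.84, with signs fixed by groups that do not overlap, and Mark1, Mark3, Mark4, Stk11 and Strada cross 0.

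All 8 measured genes had a mean of 10 normalized counts or more, the filter for testing. Among the 7 other than Mark2, 0 passed an adjusted p of 0.1 in limma and 0 had an unadjusted p under 0.05, beside 0% of all 18007 genes tested past the adjusted threshold, 0.866% lower in E3–E12 diet mice with an unadjusted p under 0.05 and 0.95% higher. Groups did not overlap for 1 of the 7, Cab39, which was lower, where 2.91% of all genes tested were lower in E3–E12 diet mice without overlap and 2.99% were higher. Of these 7 genes, 4 had a log2 fold change below 0 and 3 above, with a median of -0.18, against 0.087 over all genes tested. The median of the 7 was 0.16 without E3–E12 diet replicate 1 and 0.088 without E3–E12 diet replicate 2. It was 0.034 when a minimum mean of 100 was set, so its sign was not settled. The median SE of the 7 was 0.74, so differences of that size could not be resolved in single genes. Over all genes, 327 of 18007 had an unadjusted p under 0.05 in limma. That is fewer than this threshold gives on average where no gene differs, so the test was conservative on these values. A count of 0 among the 7 therefore does not show that none of them differ.

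The wider pathway was read from 62 genes in 7 lists, all of them in the table and 59 past the filter. In limma, 0 passed an adjusted p of 0.1 and 0 had an unadjusted p under 0.05. As the test was conservative on these values, this does not show that none of them differ. Their median log2 fold change was -0.017, with 32 genes below 0 and 27 above. From each list the gene with the smallest unadjusted p in each direction was named, and each of those named below had an adjusted p of 0.999 in limma.

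Further targets of LKB1, the AMPK-related kinases (10 genes), were split evenly, with 5 log2 fold changes below 0 and 5 above and a median of 0.12 (-0.12 without E3–E12 diet replicate 1 and -0.061 without control replicate 2). Nuak2, a kinase linked to actomyosin contraction, had 616, 509 and 292 normalized counts in the controls, against 178, 315 and 312 in E3–E12 diet mice (log2 fold change -0.79, SE 0.61). Brsk1, a kinase of neuronal polarity, stood at 115, 0 and 20.1 normalized counts in the controls, against 85.9, 101 and 16.3 in E3–E12 diet mice. The paralogs of the LKB1 partners gave no shared direction. Cab39l, the paralog of Cab39, had 151, 83.5 and 348 normalized counts in the controls, against 427, 239 and 337 in E3–E12 diet mice (log2 fold change 0.98, SE 0.72). Stradb had a log2 fold change of -0.21 (SE 0.60).

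Among 6 further PAR complex genes, 2 log2 fold changes were below 0 and 4 above, with a median of 0.50. The median was 0.15 without control replicate 2 and -0.029 when a minimum mean of 100 was set. Pard6g, a PAR-6 scaffold, stood at 49.5, 0 and 26.9 normalized counts in the controls, against 144, 49.4 and 11.3 in E3–E12 diet mice, so that both it and Brsk1 were listed at 0 in control replicate 2. Pard3b, the paralog of Pard3, had a log2 fold change of -0.67 (SE 0.78). The 14-3-3 proteins (7 genes), which bind sites phosphorylated by MARK kinases, had a median of -0.078 (0.39 without E3–E12 diet replicate 1), with Ywhaz at -0.37 (SE 0.67) and Ywhab at 0.38 (SE 0.62) named from each direction.

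Of the Crumbs and Scribble complexes, which set apical and basolateral identity in epithelia, 14 of 16 genes passed the filter, with 6 log2 fold changes below 0, 8 above and a median of 0.14, which turned to -0.28 without control replicate 2, -0.14 without E3–E12 diet replicate 1 and -0.11 after quantile normalization. Lin7c, an adaptor of the Crumbs complex, had 381, 576 and 587 normalized counts in the controls, against 263, 332 and 349 in E3–E12 diet mice (log2 fold change -0.69, SE 0.55). Dlg3, a membrane-associated scaffold, had 106, 38.4 and 133 in controls and 194, 159 and 183 in E3–E12 diet mice (log2 fold change 1.12, SE 0.67). Both were without overlap between groups, in opposite directions.

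The kinases and the deubiquitinase that act on MARK proteins (7 genes) all had log2 fold changes below 0, with a median of -0.40. Of all 18007 genes tested, 8210 were below 0. Taok2, Taok3, Gsk3b, Camk1 and Usp9x had their highest value in control replicate 2, and without that library the median was -0.25. None of the 7 passed the test, and over the libraries left out in turn the median ran from -0.85 to -0.24. Usp9x, the deubiquitinase, had 3401, 7819 and 3196 normalized counts in the controls, against 2725, 2411 and 2848 in E3–E12 diet mice (log2 fold change -0.73, SE 0.61), without overlap and with control replicate 2 far above the rest. Of the MARK substrates, 13 of 14 passed the filter, with 7 log2 fold changes below 0, 6 above and a median of -0.0022 (0.15 without E3–E12 diet replicate 1). Rab11fip2, a Rab11 effector of recycling endosomes, had 276, 840 and 315 normalized counts in the controls, against 163, 181 and 191 in E3–E12 diet mice (log2 fold change -1.23, SE 0.65), also without overlap. Cdc25b, a cell cycle phosphatase, had 75.0, 19.0 and 30.3 normalized counts in the controls, against 69.2, 121 and 54.2 in E3–E12 diet mice (log2 fold change 1.10, SE 0.73). Over all 59 genes, the groups did not overlap for 3 that were lower (Lin7c, Usp9x and Rab11fip2) and 1 that was higher (Dlg3), counts near the background of 2.91% and 2.99% of all genes tested.

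**Figure D4:**
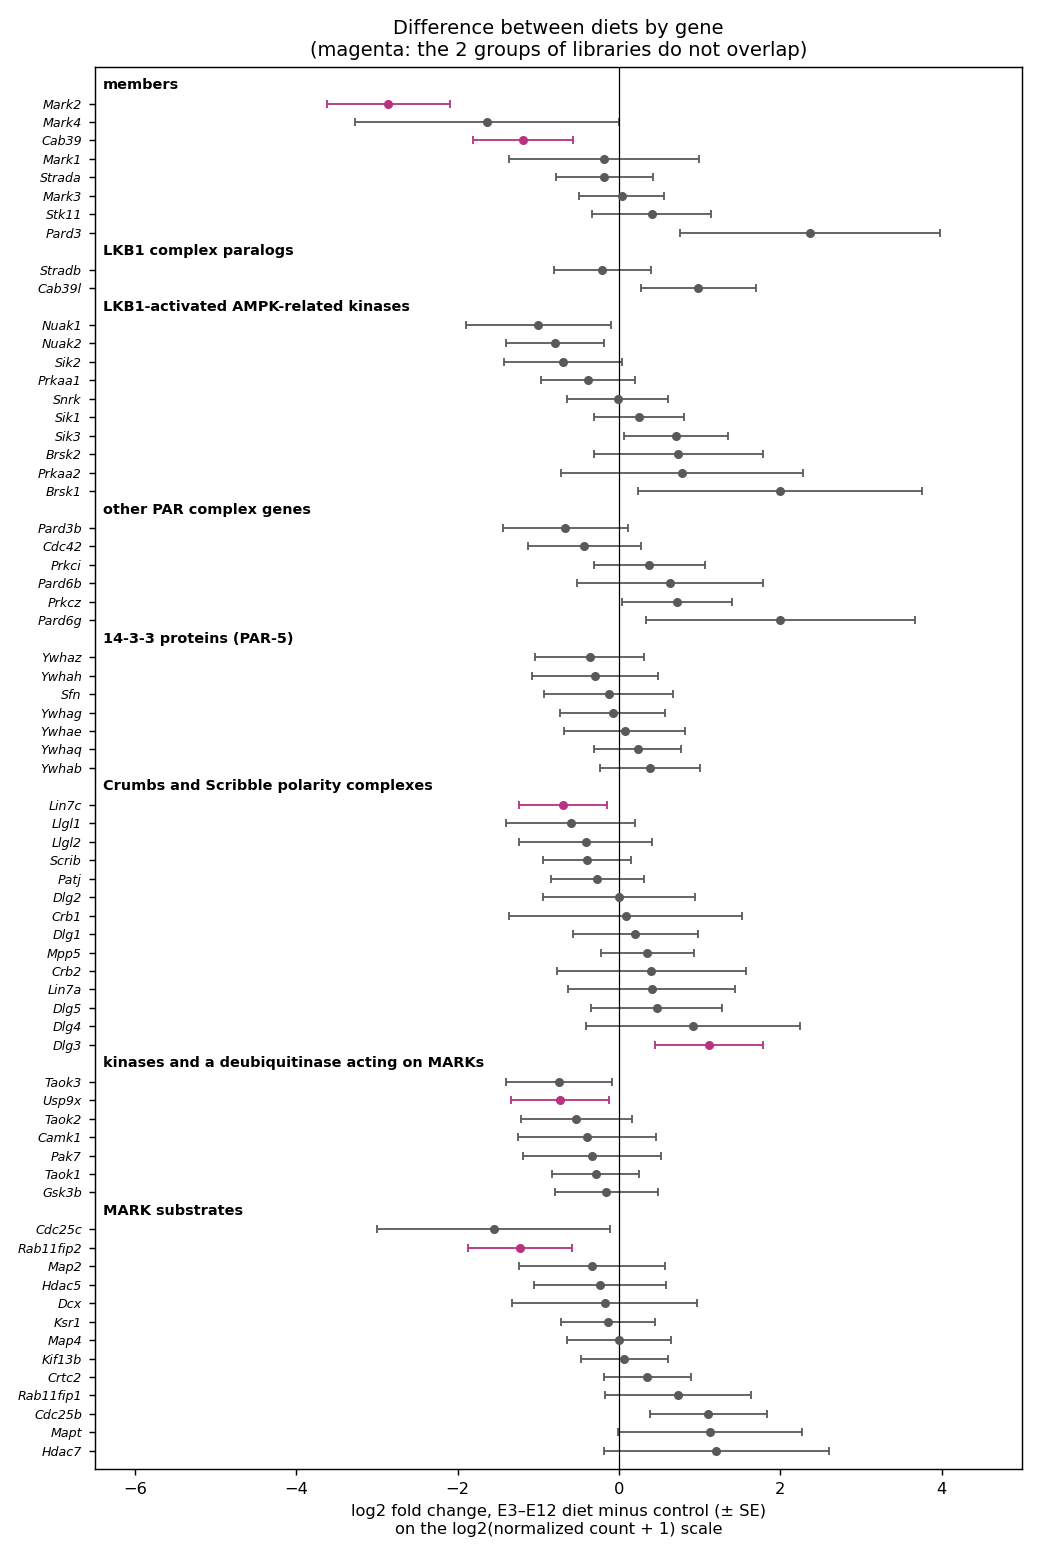
Log2 fold change, E3–E12 diet minus control, with its SE (x axis) for the 8 measured genes of the set and the 59 pathway genes tested (rows, by list). Points in magenta are the genes whose control and E3–E12 diet libraries do not overlap, which are Mark2, Cab39, Lin7c, Dlg3, Usp9x and Rab11fip2.

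Genes with a pattern most like that of Mark2 were sought by Pearson's correlation of log2 levels over the 6 libraries, among the 10147 genes whose mean was 100 normalized counts or more and that had no library at 0. The closest was Dusp11, an RNA phosphatase (r = 0.985), with 3116, 3564 and 2806 normalized counts in the controls, against 1712, 1876 and 2350 in E3–E12 diet mice. It was followed by Gtf2e2, a subunit of the general transcription factor TFIIE (r = 0.964), Dnajc27 (r = 0.954), Clec16a, a regulator of mitophagy (r = 0.951), and Tnpo3, a nuclear import receptor (r = 0.949). These genes were picked for following Mark2, whose groups do not overlap by the choice of the set, so nothing is read from how their own groups lie, and the correlations over 6 libraries are given as a description.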

How the data were processed

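RNA-seq of microglia was represented by 1 table of normalized counts per gene (a signal, not raw counts) that the authors deposited. The submitters' processing notes name FastQC, STAR, featureCounts, DESeq2 and GRCm38. Versions of these tools, the annotation and the surrogate variable step named in the title of the table are not given in the sources used here. Low values were not multiples of 1 step (2% to 5% were, within 0.02), so reads per gene and counting intervals are unknown, and no count test could be run. The study gives the reads per sample only as a range over all samples, so the depth of each library is not known. Of 26789 identifiers, 26507 were matched to symbols.

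Diets were compared on log2(value + 1) for 18007 genes with a mean of at least 10. The test was limma 3.58.1 (R 4.3.3), two-sided, with Benjamini-Hochberg adjustment and a threshold of 0.1. On simulated data, recovery of known changes was required only at a small spread, equal in all genes. Recovery at the spread of these data is not given here, so that check does not show the power of the test. Lengths, exon overlaps and shared 50-base windows came from GENCODE M21. The genes and lists were chosen with earlier results of these data known. The text names every gene of the set, per list the gene with the smallest p in each direction, and the 5 genes most like Mark2; non-overlapping genes were added after their values were seen. P-values measure the spread between litter pools in the deposited values. What the surrogate variable step did to that spread is not known. Alternatives covered the pseudocount, filter, scaling, spread model, replicate block, each library left out and the length used.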

Additional observations from a re-analysis of the deposited data

How the results depend on the processing

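Under every alternative run, 0 of all genes tested and 0 of the 7 measured genes other than Mark2 passed the adjusted threshold in limma. The study itself used DESeq2 on the reads at the same adjusted threshold of 0.1. It reported genes called in both directions, with Mark2 among the lower ones. The 0 found here with another model therefore does not mean that no gene differs between the diets. Nothing is read from either result for Mark2, whose values selected the set. Pard3 kept its direction, and groups that do not overlap fix that of Mark2 and Cab39 when a library is left out. Genes with an unadjusted p under 0.05 numbered 327, against 156 with a minimum mean of 100 (fewer genes tested), 491 after quantile normalization and 276 to 551 with 1 library left out, the highest without control replicate 1. Leaving out 1 library gave log2 fold changes of -0.98 to 0.78 for Mark1, -0.080 to 0.093 for Mark3 (negative without control replicate 2 or E3–E12 diet replicate 3, at -0.074), -3.11 to 0.25 for Mark4, -0.057 to 0.93 for Stk11 and -0.44 to 0.16 for Strada. It gave medians of -0.28 (without control replicate 2) to 0.16 (without E3–E12 diet replicate 1) for the 7 genes other than Mark2. With Mark2, whose values selected the set, the median of the 8 genes was -0.19 over all libraries. With the same libraries left out it ran from -0.56 to 0.13. The medians ran from -0.36 to 0.39 for 14-3-3 proteins and from -0.12 to 0.26 for AMPK-related kinases. The Crumbs and Scribble median turned to -0.28 without control replicate 2, -0.14 without E3–E12 diet replicate 1 and -0.11 after quantile normalization. With the minimum mean of 100 the median of the further PAR genes was -0.029. Equal library totals raised the median of all genes from 0.087 to 0.20, and no gene of the set changed direction. The cause of these shifts was not tested.

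The replicate number as a block gave 468 genes with an unadjusted p under 0.05 and 0 past the adjusted threshold. Same-numbered libraries deviated from their group means with correlations of 0.26, 0.035 and 0.142 over genes, and 5 of 6 libraries correlated best with their own number (control replicate 2 did so with E3–E12 diet replicate 3, at 0.0869), a hint from the data and not the design. Since 1 correlation was under 0.1, the numbers were not taken as pairs. With the longest transcript as the length, levels per kilobase in controls and E3–E12 diet mice were 2061 and 293 for Mark2, 179 and 184 for Mark3, 335 and 144 for Cab39, 316 and 290 for Strada and 26.8 and 52.3 for Pard3, and the Mark4 share in controls was 0.527%. The edgeR and DESeq2 alternatives were not run, since the values gave no whole reads.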
